A study of Saccharomyces cerevisiae with 15 samples.

Results

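C7-143, the final evolved β-carotene strain of a budding yeast (Saccharomyces cerevisiae) series, was compared with C3-06, an intermediate strain of the same evolution, gene by gene. The comparison sets the 3 RNA sequencing libraries of each strain side by side, 6 of 15, with the spread estimated from all 15. It covers every gene of the deposited table: 5814 of 5980 genes held enough reads to be tested. Both strains are labelled as S288C derivatives with the genotype his3Δ1 leu2Δ0 met15Δ0 ura3Δ0, and both are labelled as overexpressing the nuclease spCas9-NG, the HMG-CoA reductase HMG1 and the carotenoid enzymes CrtE, CrtYB and CrtI. These features are shared with C5-63, the other intermediate, whose values are given below for reference. Per the labels, cells grew at 30 °C in YPD, which is rich broth containing glucose at 20 g/L, and were taken near an optical density of 3. The labels give no added drug or other treatment, no promoter for the overexpressed genes, and no statement on separate cultures. The p-values therefore measure the spread between libraries of the same strain, pooled over the strains of the series, and this spread may be technical. The carotenoid and nuclease genes were not analysed here. Whether each strain is a single clone is not stated in the labels.

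Gene totals ran from 18452713 to 20791865 reads per library, spread over 5863 to 5868 genes. C3-06 replicate 1 stood apart from its fellows: the chi-square of its counts per degree of freedom was 103 and 74.0 against replicates 2 and 3, which differed by 13.5 from each other, and the C7-143 pairs lay between 21.2 and 25.3. Counts of the main lists are therefore also given without that library. Markers of mating type a were present in both strains, with the pheromone receptor STE2 at a mean of 477 CPM in C3-06 and 427 CPM in C7-143. The α-type receptor STE3 stood at 20.5 and 13.3 CPM, and the α-factor gene MF(ALPHA)1 at 2.19 and 1.62 CPM. Other α-type genes held reads as well, SAG1 at 86.4 and 59.3 CPM and AFB1 at 36.6 and 38.2 CPM. CPM is a gene's read count relative to the size of its library after TMM scaling, so it compares libraries for 1 gene and not levels between genes of different length.

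By way of background, β-carotene is built from farnesyl and geranylgeranyl diphosphate, products of the mevalonate pathway, which in yeast chiefly feeds the synthesis of ergosterol, the membrane sterol. Yeast on abundant glucose ferments it to ethanol and represses respiration, gluconeogenesis, alternative sugar use and storage carbohydrates. Ribosomal protein genes and stress response genes are under opposed nutrient control: growth signalling through protein kinase A and TOR raises the former and holds down the latter, which are driven by the factors Msn2 and Msn4.

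Most of the transcriptome differed between the strains, with about as many genes up as down. At an adjusted p below 0.05 (edgeR's quasi-likelihood test, Benjamini-Hochberg adjustment over the genes tested), 3953 genes were called, 68.0% of those tested: 1961 (33.7%) were higher in C7-143 and 1992 (34.3%) were lower. These shares of all genes are the background for the counts of list members given below. The changes were mostly modest. At least 2-fold higher were 315 genes (5.42%) and at least 2-fold lower 367 (6.31%), and a 4-fold change was passed by 12 genes upward (0.206%) and 53 downward (0.912%). The 3 libraries of one strain all lay above the 3 of the other in 4253 genes (73.2%). The median log2 fold change over all tested genes was -0.0098. Without C3-06 replicate 1, 3600 genes were called. The mean of C5-63 lay between those of the other two strains for 79.9% of the genes called higher and 82.6% of those called lower, and for 95.6% and 97.5% of those changed at least 2-fold. No chromosome stood out: the median log2 fold change of the genes on a chromosome ranged from -0.057 to 0.043 over the 16 nuclear chromosomes.

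The largest rises were in genes of several kinds. Leaving LEU2 aside, they were TIR3 and TIR1, cell wall mannoproteins induced in cold or low oxygen, UTR2, which links chitin to glucan, the ribosomal protein genes RPL9A, RPL41B and RPL2A, HEM13, the oxygen-dependent coproporphyrinogen oxidase of heme synthesis, GPP1, a glycerol-3-phosphatase, MCD1, the kleisin subunit of cohesin, POL30, the sliding clamp of DNA replication, and TOS4, a target of the G1/S factor SBF. UTR2 stood at 66.4, 165 and 132 CPM in the C3-06 libraries and at 902, 853 and 791 CPM in those of C7-143, a log2 fold change of 2.81 ± 0.22 (edgeR, adjusted p = 7.29e-08). TIR3 stood at 34.7, 45.1 and 36.4 CPM in C3-06 and at 372, 210.3 and 282 CPM in C7-143, with a log2 fold change of 2.89 ± 0.22. HEM13 went from 127, 144 and 145 CPM to 772, 410.1 and 575 CPM, a log2 fold change of 2.08 ± 0.21. The libraries of the 2 strains do not overlap in these genes because the naming rule asked for that. C5-63 stood between, at a mean of 399.8 CPM for UTR2, 148 CPM for TIR3 and 370.2 CPM for HEM13.

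The largest falls reached further than the rises and were mostly in stress and stationary phase genes. They were PIR3, a cell wall glucan-crosslinked protein, the small heat shock proteins HSP26 and HSP12 and the plasma membrane stress protein HSP30, the stress genes DDR2, SPI1, YRO2, FMP16 and SPG4, the last named for its role in stationary phase, CSR2, a ubiquitin ligase adaptor for nutrient transporters, HXT4, a glucose transporter, and HXK1, a hexokinase isozyme. PIR3 stood at 1211, 718 and 891 CPM in C3-06 and at 34.5, 34.5 and 31.2 CPM in C7-143, a log2 fold change of -4.81 ± 0.27 (edgeR, adjusted p = 3.35e-09). HSP26 fell from 5364, 2966 and 3729 CPM to 234, 114 and 215 CPM, a log2 fold change of -4.42 ± 0.31. DDR2 fell from 962, 558 and 769.9 CPM to 36.6, 35.6 and 52.1 CPM, a log2 fold change of -4.20 ± 0.24. C3-06 replicate 1 was the highest library in each of these 3 genes. Non-overlapping libraries were a condition for naming these 12. Their C5-63 means, which the condition did not use, all lay between those of C3-06 and C7-143.

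**Figure D1:**
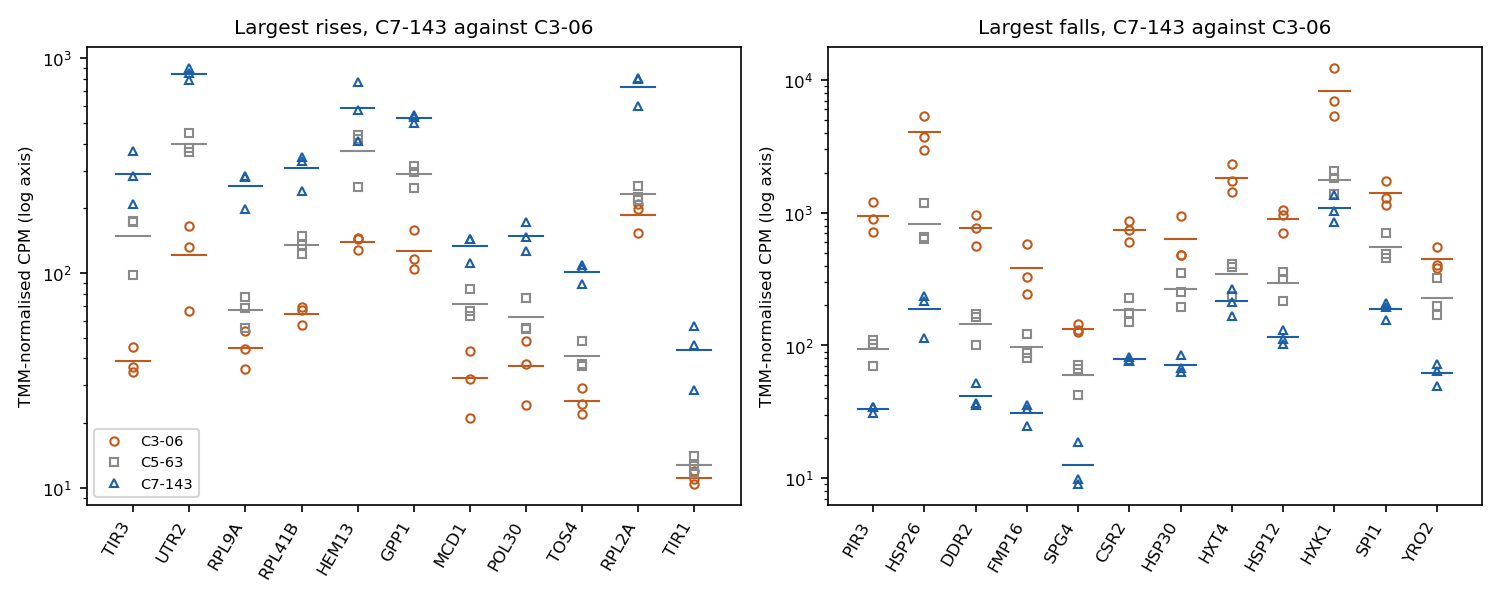
Levels in single libraries of the genes with the largest rises (left, LEU2 left out) and the largest falls (right), in TMM-normalised CPM on a log axis. Each marker is a library, each bar the mean of 3 libraries, and genes were chosen to have no overlap between C7-143 and C3-06; the C5-63 means lie between those of the other two strains.

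Of the genes named by the strain labels, LEU2 gave the sharpest contrast. LEU2 (YCL018W, chromosome III, 91324 to 92418, R64) encodes 3-isopropylmalate dehydrogenase of leucine synthesis. It had 0 reads in all 3 C3-06 libraries, of 60847082 reads in all, and 14968 reads of 58093976 in C7-143, at 269.6, 238 and 244 CPM. Against a floor of 3 counts over the C3-06 libraries it was at least 5226-fold higher in C7-143. Among genes well covered in every library of 1 of these strains, LEU2 was the sole one with at most 3 reads in the other. Genes with few reads in both strains were not searched for this. C5-63 held LEU2 at a mean of 249 CPM, although all 3 strains carry the label leu2Δ0. URA3 and MET17, the gene of the met15 allele, had 0 reads in C3-06 and C7-143, 1 read in C5-63, and were not tested. HIS3 stood at 99.2, 102 and 103 CPM in C3-06 and at 104, 108 and 98.1 CPM in C7-143, a log2 fold change of 0.028 ± 0.072 that was not called; its his3Δ1 allele is a partial deletion.

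HMG1 (YML075C, chromosome XIII, 115734 to 118898, R64), the overexpressed reductase, was lower in C7-143. It stood at 1031, 912 and 1054 CPM in C3-06 and at 517, 645 and 649 CPM in C7-143, a log2 fold change of -0.73 ± 0.13 (edgeR, adjusted p = 1.38e-04), and C5-63 stood at 427, 479 and 649.6 CPM. All C7-143 libraries lay below all C3-06 libraries, and the C5-63 and C7-143 libraries overlapped. Reads of the native gene and of an added copy cannot be told apart in this table. The galactose genes fell as well: of 9 tested, 8 were lower and GAL80, the repressor of the Gal4 activator, had 0 reads in both strains. The median log2 fold change of the 8 genes without GAL80 was -1.29. GAL1, the galactokinase, fell from 6709, 4753 and 5559 CPM to 1492, 1581 and 1379 CPM, and GAL10, the epimerase, from 12329.9, 9009.6 and 9389 CPM to 6473, 6063 and 6336 CPM. These are high levels for cells in glucose medium, where textbook regulation keeps the genes silent, and GAL10 stayed at 3080.2 FPKM, a level per kilobase, in C7-143. GAL2, the permease, fell by 1.90 on the log2 scale, GAL3, the sensor, by 1.35, and GAL4 itself by 0.63.

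Most other genes of the mevalonate pathway moved against HMG1. Of 10 members tested, 8 were higher in C7-143 and HMG1 was lower, with a median log2 fold change of 0.45 beside -0.0098 over all genes. ERG20, the farnesyl diphosphate synthase at the branch to sterols and carotenoids, rose from 557, 621 and 621 CPM to 1144, 1079 and 1001 CPM, a log2 fold change of 0.84 ± 0.087 (edgeR, adjusted p = 5.28e-07). ERG13, the HMG-CoA synthase, rose by 0.77 ± 0.11 on the log2 scale, IDI1, the isopentenyl diphosphate isomerase, by 0.70 ± 0.091, and MVD1, the mevalonate diphosphate decarboxylase, by 0.69 ± 0.14. ERG12, the mevalonate kinase, rose by 0.59 ± 0.074 and ERG10, the acetoacetyl-CoA thiolase, by 0.31 ± 0.075. ERG8, the phosphomevalonate kinase, did not pass the test, with a log2 fold change of -0.10 ± 0.067. A pair of small rises was less firm: HMG2, the second reductase, at 0.26 ± 0.085, and BTS1, the native geranylgeranyl diphosphate synthase, at 0.26 ± 0.11, whose adjusted p was 0.146 without C3-06 replicate 1 (edgeR). That library left out, 7 members were called higher.

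The ergosterol branch rose as well. Of its 15 members, 13 were higher, 0 lower, and the median log2 fold change was 0.62. ERG25, the C-4 methyl sterol oxidase, changed most: 323, 539.6 and 537 CPM in C3-06 became 1749, 1486 and 1363 CPM in C7-143, a log2 fold change of 1.72 ± 0.17 (edgeR, adjusted p = 2.94e-07). ERG6, the sterol C-24 methyltransferase, rose by 1.13 ± 0.12, ERG11, the lanosterol demethylase hit by azole drugs, by 1.11 ± 0.15, and NCP1, the reductase that supplies its electrons, by 1.09 ± 0.077. ERG2 rose by 1.01 ± 0.12, ERG3 by 0.91 ± 0.16, ERG4 by 0.74 ± 0.090, ERG26 by 0.62 ± 0.16, ERG24 by 0.60 ± 0.081 and ERG27 by 0.44 ± 0.072, all enzymes after lanosterol. At the entry, ERG9, the squalene synthase that competes with carotenoids for farnesyl diphosphate, rose by 0.30 ± 0.064. ERG7, the lanosterol cyclase, and ERG28, the scaffold, did not pass the test, at -0.099 ± 0.071 and -0.067 ± 0.12. ERG1, the squalene epoxidase, and ERG5 were called at 0.34 ± 0.14 and 0.45 ± 0.19, but without C3-06 replicate 1 their adjusted p was 0.147 and 0.203 (edgeR), which left 11 members called higher. Among regulators of sterol, heme and oxygen genes, 5 of 10 rose and 0 fell. UPC2, the activator of ERG genes, rose by 0.57 ± 0.10, and MGA2, the membrane-bound activator of OLE1, by 0.86 ± 0.10.

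**Figure D2:**
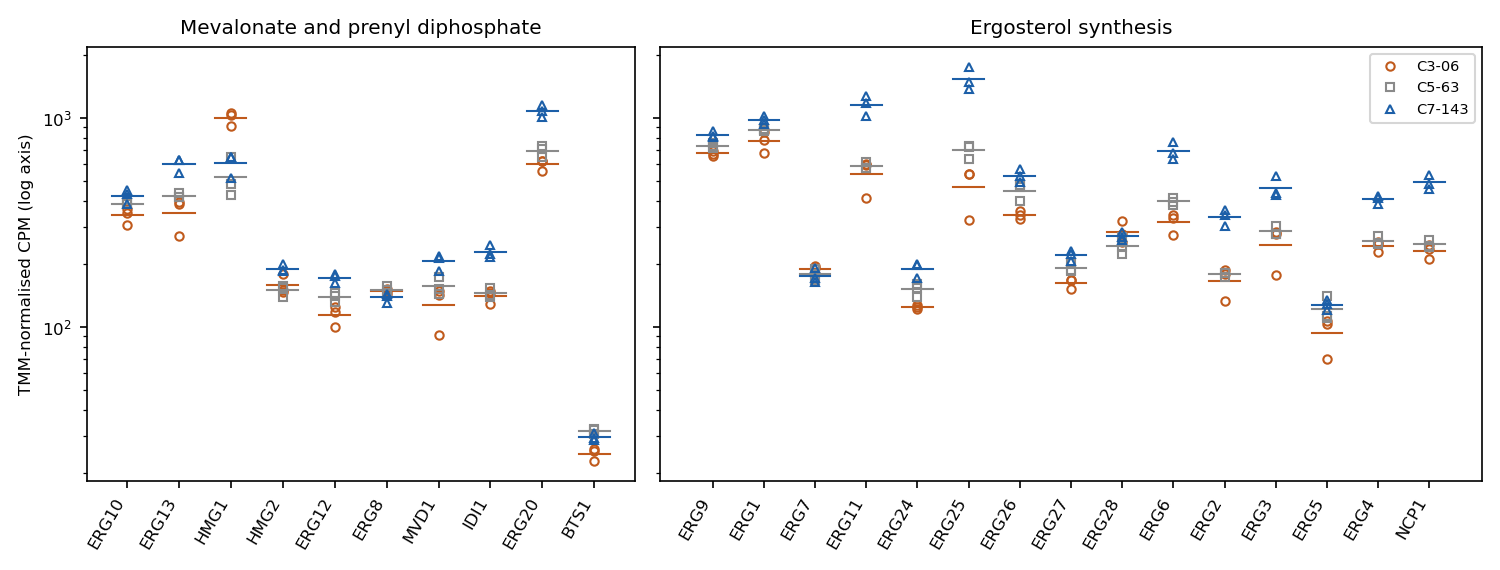
Mevalonate (left) and ergosterol (right) genes in single libraries, in pathway order, in TMM-normalised CPM on a log axis. Markers are libraries and bars means of 3; HMG1 is the gene whose C7-143 libraries lie clearly below those of C3-06, and ERG25 has the widest gap upward.

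Other lipid genes rose beside them. In fatty acid synthesis 12 of 15 members were higher and 1 lower, with a median log2 fold change of 0.88. ACC1, the acetyl-CoA carboxylase, stood at 230.2, 217 and 202 CPM in C3-06 and at 577, 518 and 517 CPM in C7-143. FAS2, a fatty acid synthase subunit, rose by 1.35 ± 0.095 on the log2 scale, and the elongases ELO2 and ELO3, which make very long chains, by 1.53 ± 0.12 and 1.73 ± 0.15. The exception was FAA2, an acyl-CoA synthetase linked to peroxisomes, which fell by 1.19. In phospholipid synthesis 13 of 19 rose and 4 fell, with a median of 0.64. The risers included CHO2, the phosphatidylethanolamine methyltransferase, at 1.18 ± 0.062, CPT1, the cholinephosphotransferase, at 1.51 ± 0.080, and the inositol permease ITR1 at 1.61 ± 0.11. Sterol and lipid storage genes were mixed: 5 of 13 rose (38.5%, beside 33.7% of all genes) and 3 fell (23.1%, beside 34.3%). Among them ARE2, the main sterol acyltransferase, was higher at 0.92 ± 0.087, and DGA1, a diacylglycerol acyltransferase, lower at -0.59 ± 0.069. Without C3-06 replicate 1, 11 fatty acid and 12 phospholipid genes were called higher.

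Genes of protein synthesis rose broadly. Of 137 cytosolic ribosomal protein genes, 129 were higher and 4 lower, with a median log2 fold change of 1.04; without C3-06 replicate 1, 124 were called higher. Their share of all reads was 2.23, 3.08 and 2.81% in the C3-06 libraries, 3.67, 3.40 and 3.89% in C5-63 and 5.52, 5.95 and 4.76% in C7-143. The strains did not overlap, and C3-06 replicate 1 was the lowest of all. RPS26A rose from 410.1, 450.1 and 421 CPM to 1296, 1217 and 991 CPM, a log2 fold change of 1.45 ± 0.089 (edgeR, adjusted p = 5.28e-09), and the stalk protein RPP2B by 1.34 ± 0.086. Most ribosomal proteins are encoded by near-identical gene pairs whose reads may be split or lost between copies, so single members are uncertain: RPL9A rose by 2.50 ± 0.17 while RPL9B was called at -0.20 ± 0.084, a call lost under 9 alternatives. Translation factors followed, 33 of 36 higher and 1 lower, with a median of 0.66. The count was 32 without C3-06 replicate 1. EFB1 and TEF4, subunit genes of the complex that exchanges nucleotide on elongation factor eEF1A, rose by 1.81 ± 0.11 and 1.79 ± 0.13. TIF1, a copy of initiation factor eIF4A, rose by 1.16 ± 0.091, and the release factor SUP35 by 0.64 ± 0.055. ANB1, the low-oxygen copy of eIF5A, rose by 1.51 ± 0.18.

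Genes that build ribosomes had a smaller median. Of 50 members, 34 rose and 0 fell, at a median log2 fold change of 0.50. The box C/D protein NOP56 rose by 0.90 ± 0.10, GAR1 of the pseudouridylation complex by 0.97 ± 0.11, NOP12 by 1.02 ± 0.10 and the helicase HAS1 by 1.29 ± 0.15. Without C3-06 replicate 1, 27 members were called higher. The C5-63 mean lay between those of C3-06 and C7-143 in 22 of the 50 members, beside 3702 of all 5814 genes tested. For HAS1 the C5-63 mean was 54.3 CPM, beside 55.0 CPM in C3-06 and 134 CPM in C7-143. RNA polymerase I and III genes gave 14 higher and 2 lower of 24, at a median of 0.40. The ribosomes of mitochondria went the other way, with 1 of 66 higher and 33 lower, at a median of -0.19; MRPL33 fell by 0.84 and RSM7 by 0.56. The PAC core GATGAG, a word found upstream of rRNA processing genes, was searched on both strands from 250 bases before to 50 bases after the start codon. It was present in 48 of 50 ribosome biogenesis promoters (96.0%) and in 19.9% of all 5814 promoters of tested genes. Across all promoters with it, risen or not, the median log2 fold change was 0.052. The promoter of HAS1, the called list member with the largest change that holds the word, is shown to place it (chrXIII:851542-851841, minus strand, R64, printed 5′ to 3′ in the gene's direction, from RefSeq); capitals mark a pair of overlapping copies that begin 106 and 101 bases before the start codon.
HAS1: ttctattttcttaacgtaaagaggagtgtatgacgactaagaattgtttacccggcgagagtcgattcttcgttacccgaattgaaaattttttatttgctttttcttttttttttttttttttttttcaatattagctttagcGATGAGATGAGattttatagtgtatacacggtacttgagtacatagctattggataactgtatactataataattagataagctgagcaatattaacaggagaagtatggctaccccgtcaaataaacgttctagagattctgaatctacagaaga

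Respiratory genes fell as a block. All 41 nuclear genes of the respiratory chain and ATP synthase that were tested were lower in C7-143, with a median log2 fold change of -1.08; without C3-06 replicate 1 the count was 40. Their share of reads was 1.81, 1.69 and 1.84% in C3-06 and 0.742, 0.827 and 0.838% in C7-143, without overlap. QCR10, of complex III, fell from 313, 279 and 309 CPM to 97.1, 114 and 103 CPM, a log2 fold change of -1.52 ± 0.10 (edgeR, adjusted p = 1.07e-08). The external NADH dehydrogenase NDE1 fell by 2.11, the ATP synthase subunits ATP15 and ATP18 by 1.31 and 1.16, and the ATP synthase inhibitor INH1 by 1.81. HAP4, the limiting subunit of the activator of respiratory genes, fell by 1.12. The CCAAT word that this activator reads was present in 33 of 41 of these promoters (80.5%) and in 43.6% of all; members with and without it had median log2 fold changes of -1.14 and -0.96. In the TCA cycle 15 of 19 genes fell and 0 rose, at a median of -0.80. The succinate dehydrogenase gene SDH2 fell by 1.44 and the malate dehydrogenase gene MDH1 by 1.61, while the lipoamide dehydrogenase LPD1 did not pass the test, at -0.088 ± 0.075.

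Carbon genes that glucose represses were lower too. In gluconeogenesis and the glyoxylate cycle 15 of 21 fell and 1 rose, the malic enzyme MAE1 at 1.04 ± 0.10, with a list median of -1.07. The count of falls was 12 without C3-06 replicate 1, and 14 TCA cycle genes were then lower. CAT8, the activator of gluconeogenesis, fell by 1.55, the isocitrate dehydrogenase IDP2 by 2.31 and the cytosolic malate dehydrogenase MDH2 by 1.06. FBP1 and ICL1, the signature enzymes of the pathways, had log2 fold changes of -1.04 ± 0.44 and -0.91 ± 0.41 and did not pass the test, though both passed when the libraries of these 2 strains were fitted alone. Of 17 hexose transporter and sensor genes 9 fell and 1 rose, at a median of -0.22. HXT4 fell from 2338, 1431 and 1732 CPM to 166, 213 and 267 CPM, and the high-affinity transporters HXT6 and HXT7, near-identical in sequence, fell by 2.07 and 2.22. HXT3, a low-affinity transporter at 1237 CPM in C3-06, did not pass the test, at -0.12 ± 0.12. The low-affinity HXT1, the single member called higher, rose by 0.32 ± 0.12 and lost its call under 6 alternatives, 4 of which left out a library. In glycerol metabolism 9 of 13 genes fell, among them the glycerol utilisation genes GUT1 and GUT2 by 1.23 and 1.72. The 2 that rose were GPP1 at 2.05 ± 0.14 and GPD2 at 0.33 ± 0.098.

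Glycolysis itself rose in part. Of 17 genes 9 were higher and 2 lower, the hexose kinases HXK1 and GLK1, with a median log2 fold change of 0.41. The list held 11.1, 8.25 and 7.73% of reads in C3-06 and 12.5, 10.7 and 11.8% in C7-143, where C3-06 replicate 1 lay above the lowest C7-143 library; without it 12 members were called higher. ENO2, the main enolase on glucose, rose from 3892, 2964 and 2363 CPM to 12601, 9574 and 9943 CPM, a log2 fold change of 1.80 ± 0.19 (edgeR, adjusted p = 7.67e-07). FBA1, the aldolase, rose by 0.92 ± 0.17, CDC19, the pyruvate kinase, by 0.78 ± 0.17, GPM1, the phosphoglycerate mutase, by 0.70 ± 0.17 and TPI1, the triosephosphate isomerase, by 0.58 ± 0.15. TDH3, the most abundant of them, was called at 0.43 ± 0.15, but its adjusted p reached 0.0989 when a single library was left out (edgeR). From pyruvate to ethanol and acetate, 5 of 16 genes rose (31.25%) and 7 fell (43.75%), beside 33.7% and 34.3% of all genes.

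Some related enzymes parted in direction. In a set of 17 related gene pairs of central carbon metabolism and chaperones, chosen after their values were seen so that their counts say nothing of how common this is, most of the second members are known to be repressed by glucose or induced by stress. The first member was called higher in 14 pairs, the second was called lower in 15, and both held in 12. HXK2, the hexokinase of growth on glucose, rose from 1174, 1314 and 1277 CPM to 1875, 1696 and 1759 CPM, while HXK1 fell from 12342, 5391 and 6957 CPM to 1024, 857 and 1361 CPM. HXK2 made up 14.6 ± 5.51% of the reads of the pair in C3-06, 41.8 ± 5.40% in C5-63 and 62.5 ± 5.36% in C7-143. Among the others, ADH1, which makes ethanol, rose by 0.96 ± 0.16, and ADH2, which consumes it, fell by 1.41. The cytosolic acetaldehyde dehydrogenase ALD6, a source of acetate for acetyl-CoA, rose by 1.03 ± 0.27, from a mean of 28.8 CPM to 59.0 CPM, and the mitochondrial ALD4 fell by 2.10; the acetyl-CoA synthetase ACS2 rose by 0.76 ± 0.074 and the glucose-repressed ACS1 fell by 1.41. In the pentose phosphate pathway GND1 rose by 0.98 ± 0.092 against a fall of 2.55 in GND2, and TKL1 rose by 1.20 ± 0.12 against a fall of 1.23 in TKL2. The first enzyme of that pathway, ZWF1, fell by 0.49.

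**Figure D3:**
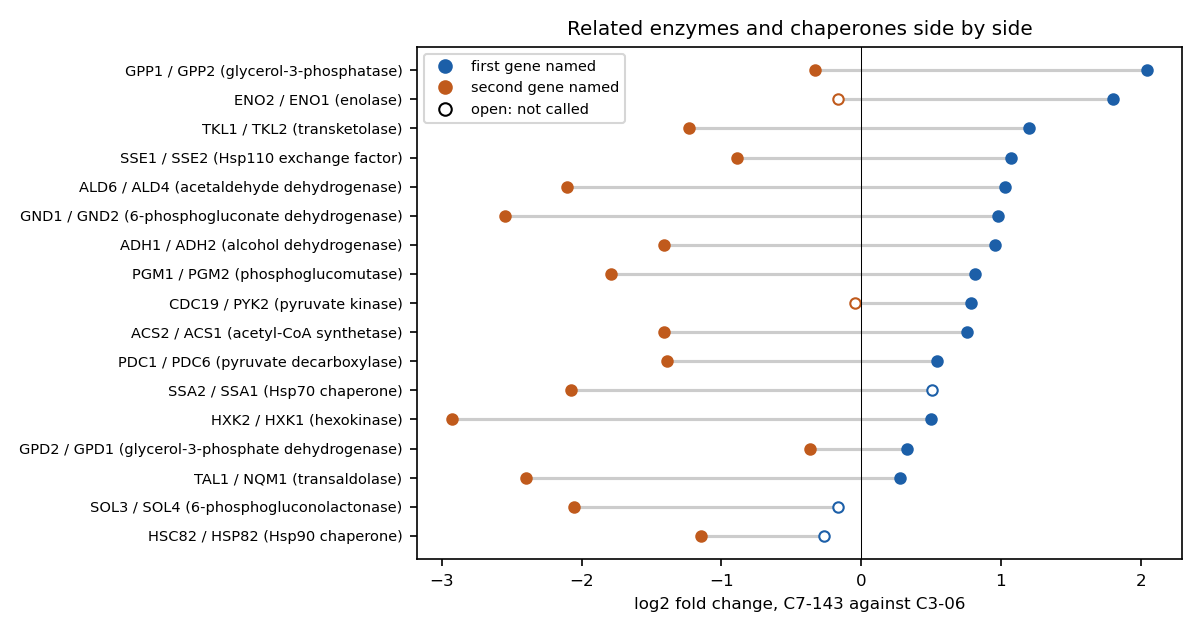
Log2 fold changes of 17 related gene pairs between C7-143 and C3-06; filled points passed the test and open points did not. In 12 pairs the first gene named was higher and the second lower; the pairs were chosen after their values were seen.

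Stress genes fell, with the lowest median of the 53 lists. Of 29 general stress genes, 27 were lower and 0 higher, at a median log2 fold change of -1.61; without C3-06 replicate 1 the count was 26. Their reads were 3.28, 2.44 and 2.77% of the total in the C3-06 libraries, 1.56, 1.90 and 1.64% in C5-63 and 1.11, 1.03 and 1.17% in C7-143, with no overlap between C3-06 and C7-143. HSP12, a membrane-stabilising protein, fell from 1040.0, 699 and 962 CPM to 102, 113 and 130.3 CPM, and PRX1, the mitochondrial peroxiredoxin, by 1.61 on the log2 scale. DDR48 and HOR7 did not pass the test, at -0.12 ± 0.097 and -0.27 ± 0.15. The stress response element AGGGG, the word bound by Msn2 and Msn4, was present on either strand in 16 of 29 of the promoters (55.2%) and in 21.9% of all. Members with it had a median of -1.58 and those without it a median of -1.73, so the fall was not confined to promoters with the word in this window. DDR2, the called member with the largest change that holds it, is shown with 3 copies in capitals, read on the opposite strand, that begin 248, 203 and 175 bases before the start codon (chrXV:231706-232005, minus strand, R64, RefSeq).
DDR2: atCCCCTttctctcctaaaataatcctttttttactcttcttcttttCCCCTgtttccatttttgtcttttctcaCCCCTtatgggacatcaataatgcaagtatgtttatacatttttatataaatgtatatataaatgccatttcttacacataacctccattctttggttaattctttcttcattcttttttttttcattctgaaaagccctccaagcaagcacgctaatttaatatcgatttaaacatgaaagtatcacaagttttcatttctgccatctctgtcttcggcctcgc

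Storage carbohydrate genes shared the direction. Of 19 trehalose and glycogen genes 16 fell and 1 rose, PGM1 at 0.82 ± 0.095, with a median of -0.87. GPH1, the glycogen phosphorylase, fell from 1819, 914 and 1151 CPM to 176, 176 and 194 CPM, and the branching enzyme GLC3 and debranching enzyme GDB1 fell by 1.73 and 2.13, so genes of both synthesis and breakdown were lower. Chaperones moved both ways. In the heat shock list 17 of 25 fell and 3 rose, at a median of -0.43. Without C3-06 replicate 1, 14 chaperone and 15 storage genes were called lower. The disaggregase HSP104 fell by 1.49 and the Hsp70 gene SSA1 by 2.08. The members that rose were SSB1 and SSB2, the Hsp70 proteins that sit on ribosomes, at 1.63 ± 0.16 and 0.96 ± 0.11, and SSE1, an exchange factor, at 1.07 ± 0.13. In the oxidative stress list 13 of 25 fell, among them the catalase CTT1 by 1.38, and 5 rose, among them the cytosolic thioredoxin system genes TRX1 at 0.77 ± 0.11 and TRR1 at 0.65 ± 0.069.

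**Figure D4:**
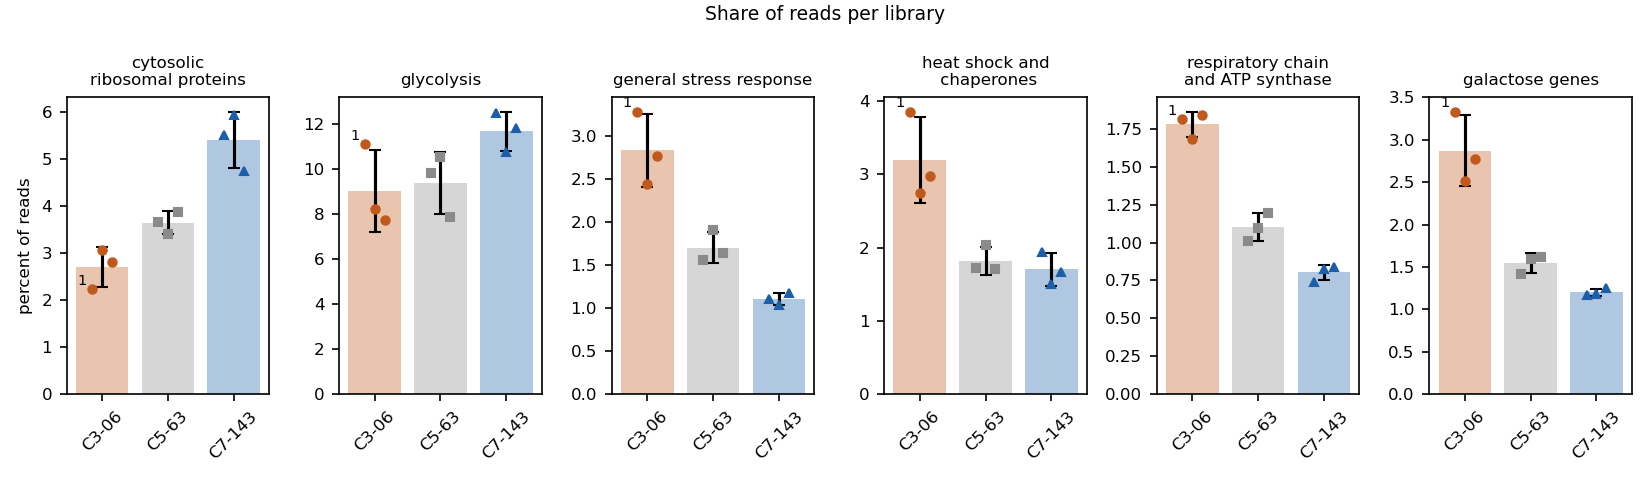
Percent of all reads held by 6 gene lists in each library of C3-06, C5-63 and C7-143. Bars are means, error bars the SD of 3 libraries and points single libraries; the digit marks C3-06 replicate 1, and ribosomal protein genes gain share as stress, respiratory and galactose genes lose it.

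Cell cycle and replication genes rose. In bulk RNA, more cells in a phase and more RNA per such cell cannot be told apart. Of 45 DNA replication genes 35 were higher and 1 lower, at a median log2 fold change of 0.58; without C3-06 replicate 1, 31 were called higher. POL30 rose from 24.4, 48.4 and 37.7 CPM to 127, 173 and 147 CPM, a log2 fold change of 2.01 ± 0.19 (edgeR, adjusted p = 3.02e-07). RFA1, which coats single-stranded DNA, rose by 1.47 ± 0.12, CDC21, the thymidylate synthase, by 1.32 ± 0.11, CDC6, the origin licensing factor, by 1.55 ± 0.13 and the checkpoint mediator MRC1 by 1.17 ± 0.11. RNR1, the large ribonucleotide reductase subunit, rose by 1.57 ± 0.19, and the small subunit genes RNR2 and RNR4 did not pass the test, at 0.12 ± 0.11 and -0.057 ± 0.11. The MCB word ACGCGT, read by the G1/S factor MBF, was present in 25 of 45 of these promoters (55.6%) and in 3.15% of all. Members with it had a median of 0.73 and members without it 0.44, and over all promoters with the word the median was 0.32. The POL30 promoter is shown as the called member with the largest change that holds it; its copy, in capitals, begins 195 bases before the start codon (chrII:425717-426016, minus strand, R64, RefSeq).
POL30: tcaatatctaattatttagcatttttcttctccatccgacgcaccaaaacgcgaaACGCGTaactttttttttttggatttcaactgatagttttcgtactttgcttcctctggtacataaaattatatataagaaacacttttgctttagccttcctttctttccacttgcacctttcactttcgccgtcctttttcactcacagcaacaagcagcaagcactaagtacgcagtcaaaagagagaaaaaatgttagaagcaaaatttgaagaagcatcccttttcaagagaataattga

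Upstream of replication, 12 of 17 genes of G1 and Start rose and 1 fell, at a median of 0.46. The G1 cyclin CLN2 rose from 30.5, 41.5 and 36.1 CPM to 128, 130.2 and 126 CPM, and SWI4, the DNA-binding subunit of SBF, by 0.86 ± 0.097 on the log2 scale. CLN3, the upstream cyclin, was called at 0.25 ± 0.098 but not under 6 alternatives, and the inhibitor WHI5 did not pass the test, at -0.027 ± 0.070. Mitotic genes rose too, 18 of 22 higher and 1 lower at a median of 0.57. CLB2, the main mitotic cyclin, rose by 1.48 ± 0.14, and the member that fell was CDH1, an activator of cyclin destruction, by 0.47. Without C3-06 replicate 1, 11 G1 and 18 mitotic genes were called higher. The daughter cell genes that follow mitosis were less moved, 8 of 17 higher and 2 lower at a median of 0.13. Of 14 histone and histone regulator genes 7 rose and 2 fell: HTB2 rose by 1.18 ± 0.19 and HTA2 by 1.07 ± 0.13, whereas HTA1 fell by 0.56, and these copies are close enough in sequence to share reads.

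At the cell wall the list split. Of 38 wall proteins and glucan enzymes 21 rose and 9 fell, at a median of 0.33. Enzymes that remodel glucan were among the risers: GAS3 by 1.85 ± 0.095, SCW4 by 1.69 ± 0.093 and GAS1 by 1.29 ± 0.17. The fallers were led by PIR3 and YGP1, a glycoprotein of starved cells, which fell by 2.00. They included SED1, an abundant structural mannoprotein of late growth, which went from 9175, 8208 and 8778 CPM to 4449, 4049 and 4545 CPM. Glucan enzymes were among the fallers too: BGL2 at -0.51 ± 0.085 and GSC2 at -0.39 ± 0.094. In the TIR, DAN and PAU family 5 of 22 rose and 12 fell. TIR1 and TIR3 rose while TIR2 fell by 0.61, PAU23 by 0.98 and PAU24 by 1.79; members of this family are near copies, so the values of single genes are uncertain. Of the heme and ubiquinone genes HEM13 stood alone in size: 3 of 18 rose, the others by at most 0.28 ± 0.087, and 8 fell, including COQ9 by 0.69.

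Several lists of amino acid and nucleotide synthesis were mostly higher, and others were mixed. In the aromatic, serine, glycine and threonine list 25 of 30 rose and 2 fell, at a median of 0.58. SHM2, the cytosolic serine hydroxymethyltransferase, rose by 1.21 ± 0.11, and the phosphoglycerate dehydrogenases parted, SER33 rising by 0.82 ± 0.066 and SER3 falling by 1.14. In the purine list 16 of 22 rose and 1 fell, at a median of 0.88. IMD3, an IMP dehydrogenase of GTP synthesis, rose from 141, 223 and 184 CPM to 706, 764 and 661 CPM, and ADE2, on the path to AMP, by 1.30 ± 0.083. Leucine, isoleucine and valine genes gave 10 higher and 2 lower of 13; the median was 0.42 without LEU2 and 0.54 with LEU2 set at its bound. The arginine, histidine and lysine list was mixed, 12 higher (44.4%) and 6 lower (22.2%) of 27, beside 33.7% and 34.3% of all genes. HIS4 rose by 1.84 ± 0.11, and GCN4 itself, at -0.049 ± 0.075, was not called. In the sulfate list 8 of 28 rose (28.6%) and 13 fell (46.4%). Sulfate permease genes SUL1 and SUL2 fell by 0.60 and 0.74, and SAH1, which clears S-adenosylhomocysteine, rose by 1.76 ± 0.14. The uracil list had 6 higher (42.9%) and 3 lower (21.4%) of 14.

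In the lists of nutrient uptake and scavenging more genes were lower than higher, with 30.4% to 70.4% of a list lower beside 34.3% of all genes. Of 26 amino acid and nitrogen permeases 15 fell and 3 rose, at a median of -0.39, and of 25 nitrogen catabolism genes 16 fell and 4 rose, at a median of -0.33. The ammonium permease MEP1 fell by 0.80, the allantoinase DAL1 by 1.26 and the GABA transaminase UGA1 by 0.95; the peptide transporter PTR2 went the other way, up by 1.58 ± 0.21. Among iron uptake genes 19 of 27 fell and 1 rose, at a median of -0.44. The siderophore transporter ARN2 fell by 1.05, the wall mannoprotein FIT3 by 0.76, and FET4, a low-affinity iron transporter, was the member that rose, by 0.51 ± 0.10. The word TGCACCC, the core read by the iron regulator Aft1, was found in 12 of 27 of these promoters (44.4%) against 1.27% of all, with medians of -0.38 with it and -0.57 without. Zinc, copper and thiamine genes gave 14 lower and 5 higher of 25, and phosphate genes 7 lower and 4 higher of 23. In drug and organic acid transport 12 of 24 fell and 4 rose, with the ABC transporter PDR15 falling by 0.89.

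Protein quality control genes parted by system. In the endoplasmic reticulum 15 of 21 folding and translocation genes rose and 1 fell, at a median of 0.40. The disulfide isomerase PDI1 rose from 1448, 1507 and 1461 CPM to 3400.4, 3199 and 3108 CPM, its oxidase ERO1 by 1.20 ± 0.12 and the translocon gene SEC61 by 0.96 ± 0.063. Of 33 proteasome genes 28 rose and 2 fell, at a median of 0.34, and a faller was RPN4, the activator of the others, by 0.80. Autophagy genes fell, 20 of 24 lower and 3 higher at a median of -0.50; the kinase ATG1 fell by 0.85 and ATG39, a receptor for nuclear envelope turnover, by 2.57. Peroxisome and β-oxidation genes gave 20 lower and 2 higher of 28, at a median of -0.42. In the list of growth and nutrient regulators 9 of 30 rose (30.0%) and 13 fell (43.3%), beside 33.7% and 34.3% of all genes. MSN2 rose by 0.70 ± 0.084, MSN4 was called at -0.20 ± 0.085 but not under 9 alternatives, the kinase YAK1, an antagonist of growth, fell by 1.07, and GPG1, a G protein subunit linked to glucose signalling, fell by 2.27.

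Both directions occurred in the a-type and pheromone lists, and falls alone were called in the α-type and sporulation lists. Of 10 genes in the a-type list 4 rose and 2 fell. The risers included STE14 at 0.51 ± 0.15 and RAM1 at 0.22 ± 0.073, a-factor processing genes that are not limited to a cells. The α-factor protease BAR1 rose from 70.4, 136 and 121 CPM to 202, 204 and 168 CPM. Of 5 α-type genes tested, 4 were lower. In the pheromone response 10 rose and 9 fell of 25, with STE12, its transcription factor, rising by 1.11 ± 0.10. Those shares, 40.0% and 36.0%, were close to the 33.7% and 34.3% of all genes. Of 20 meiosis and sporulation genes 10 fell and 0 rose, led by SPS100, a spore wall gene, which fell from 333, 205 and 213 CPM to 53.6, 31.3 and 50.3 CPM.

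Other words searched in the same window on both strands gave the following shares. The Gcn4 core TGACTC was in 16 of 27 (8.12% of all promoters) of the arginine, histidine and lysine genes, and the pheromone response element TGAAACA in 13 of 25 (7.41% of all promoters) of the pheromone genes. The word AGGGG was in 9 of 19 (21.9% of all promoters) of the trehalose and glycogen genes. The E-box CACGTG was in 6 of 23 (2.91% of all promoters) of the phosphate genes and in 9 of 28 sulfate genes. Matches were few for the Mig1 core CCCCGC, in 3 of 21 (2.56% of all promoters) of the gluconeogenesis genes, for the sterol element core TCGTATA, in 1 of 15 (4.21% of all promoters) of the ergosterol genes, and for the SCB word CGCGAAA, in 0 of 17 (3.63% of all promoters) of the G1 genes. A match describes the letters of these windows and says nothing on binding.

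**Figure D5:**
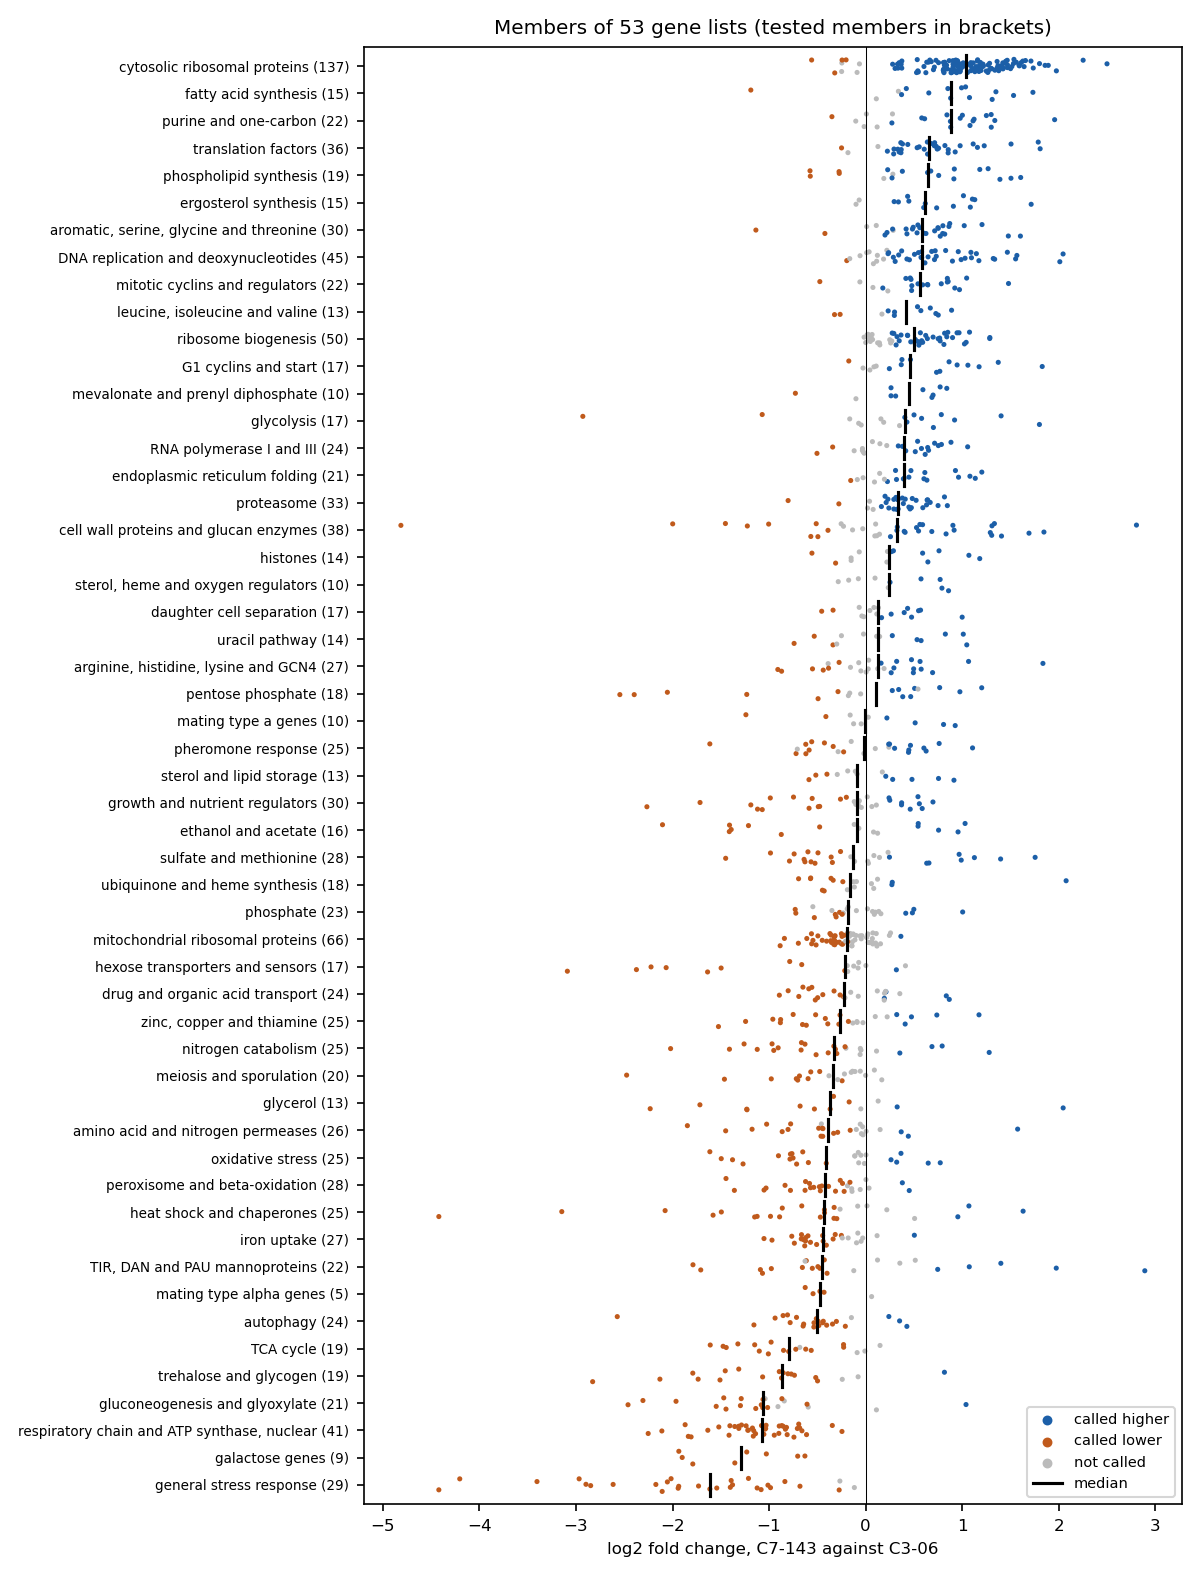
Log2 fold changes of the tested members of 53 gene lists, ordered by list median (black bars); blue points were called higher in C7-143, orange points lower and grey points were not called. LEU2 and GAL80, with 0 reads in C3-06, are left out; ribosomal protein genes stand at the top and general stress genes at the bottom.

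Ribosomal protein and stress genes are known to follow growth state in yeast, and they moved against each other within C3-06 as well: replicate 1, lowest in ribosomal protein reads, was highest in stress reads. The optical density of each culture at harvest is given by the labels as about 3 for every strain. The part of growth state in these differences was not tested, and strain and culture cannot be told apart in this design.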

How the data were processed

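RNA of 15 samples of 5 strains was sequenced, and the 3 libraries of C7-143 and the 3 of C3-06 are compared here. The aligner was HISAT2 (no version), per the submitters' processing notes; which counter, strand setting and build followed is not given in the sources used here, so reads of overlapping or antisense genes cannot be told apart with certainty. The authors deposited raw read counts per gene, which were used as deposited, and FPKM values, which follow from the counts and gene lengths and are quoted as the authors' values per length. Of 5980 genes, 5977 have their identifier in R64 and 5972 the same start and end; lengths are coding lengths, since 99.2% are multiples of 3.

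In R 4.3.3, edgeR 4.0.16 kept 5814 genes (filterByExpr, minimum count 10, minimum total 15), scaled libraries by TMM and fitted a robust quasi-likelihood model of strain to all 15 samples, which left 10 residual degrees of freedom. The tests were two-sided with Benjamini-Hochberg adjustment over these genes, and a gene was called below 0.05. Standard errors of log2 fold changes are their size over the square root of F. The floor of 3 counts covers counting error only.

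The members and the 53 lists were chosen with earlier results of these data known, so lists are described by counts and medians and not tested. Genes named are those of the labels and GAL80, the 12 largest rises and falls among called genes with a standard symbol, libraries that do not overlap and at least 10 CPM in the higher strain, the mevalonate and ergosterol genes, up to 4 called members, by adjusted p, from each list with at least 50% called one way, and the 5 most abundant called genes in each direction. Other members named were chosen after their values were seen.

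Promoters were read from the RefSeq R64 genome; the 250 bases before the start alone were the alternative window. The result for 1 motif searched is not reported here. Results were recomputed with RLE scaling, DESeq2 1.42.0, no filter, library totals alone, a stricter filter (5 CPM in 3 samples), the libraries of these 2 strains or of the 3 evolved strains alone, a replicate block, voom in limma 3.58.1, a threshold of 0.01, and without each of the 6 libraries.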

Additional observations from a re-analysis of the deposited data

How the results depend on the processing

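The 16 alternatives kept the count of calls within 1.5 times of the 3953 reported. Leaving out single libraries gave 3600 to 3820 calls, 1803 to 1887 higher and 1797 to 1933 lower, and the other alternatives 3298 to 4055. A replicate block gave 1977 higher and 2002 lower genes, 3979 in all. The replicate numbers do not pair the libraries by the data: deviations of same-numbered libraries correlated at -0.0696, 0.288 and -0.214, and not every library correlated best with its own number. Scaling by library totals alone moved the median log2 fold change of all genes to -0.072 and gave 1577 higher and 2153 lower genes. Of 284 genes named in the text or plotted as pairs that had a test, 266 kept their call or lack of one under every alternative, and no called value changed sign. Calls were lost under 3 to 9 alternatives by 11 of the exceptions, with adjusted p of up to 0.0566 for HMG2, 0.213 for BTS1, 0.164 for ERG1, 0.203 for ERG5, 0.141 for MF(ALPHA)1, 0.0989 for TDH3, 0.204 for CLN3, 0.153 for HXT1, 0.183 for MSN4, 0.222 for RPL9B and 0.0738 for TAL1 (edgeR, or DESeq2 for MF(ALPHA)1). Another 7 genes gained calls under 1 to 6 alternatives, FBP1, ICL1, SSA2, HOR7, HSC82, LPD1 and OLE1. The cause was not tested. Of 1696 counts of list members, 54 moved by over 1.5 times; the largest of these counts were 15 permeases lower and 10 pheromone response genes higher, which were 9 and 6 at an adjusted p below 0.01. Without the 50 bases after the start, the shares of promoters with AGGGG in the stress list, ACGCGT in the replication list and TGCACCC in the iron list were unchanged. Depth limits genes of low CPM, such as MF(ALPHA)1 at means of 2.19 CPM in C3-06 and 1.62 CPM in C7-143. Near-identical gene copies limit single ribosomal protein, histone, HXT and PAU genes.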
